A study of Mus musculus with 8 samples.

Results

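The 10 genes described here are the Notch receptors Notch1, Notch2 and Notch3, the ligands Dll1, Dll4 and Jag1, the basic helix-loop-helix factors Hes1 and Hes6, and the secretory lineage factors Atoh1 and Gfi1. They were chosen by name, for their place in the Notch pathway, though earlier results of these data were known at the time. All 10 are among the 35199 genes of the deposited table. RNA was sequenced from tuft cells, rare chemosensory cells of the gut epithelium, sorted from the jejunum of Dclk1-DTR-ZSgreen mice, with 1 library per mouse. The question was how blockade of muscarinic acetylcholine receptors with scopolamine altered expression in these cells. Osmotic pumps delivered scopolamine to 4 mice (0.5 mg per kg daily for 7 days), and 4 sham mice received sodium chloride over the same 7 days. All 8 mice carried the same transgene, a bacterial artificial chromosome in which a cassette of the diphtheria toxin receptor and ZSgreen sits in the exon of Dclk1 that holds its start codon, made in CBA × C57BL/6J oocytes and backcrossed to C57BL/6J. Mice of the study were 8 to 10 weeks old when pumps were implanted. The sort took live cells high for EpCAM and positive for ZSgreen, so a library holds cells in which the Dclk1 sequence of the transgene is active. It was made from 3000 cells for scopolamine replicate 1 and sham replicate 1 and from 4000 for the others.

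Notch is a receptor on the surface of one cell that is activated by a Delta or Jagged ligand on its neighbour. The activated receptor is cleaved, and its inner part enters the nucleus, joins the DNA-binding protein RBPJ and switches on repressors of the Hes family. In the intestinal crypt, cells with active Notch keep Hes1 high and Atoh1 low and become absorptive, whereas cells that escape the signal express Atoh1, display Delta ligands and take a secretory fate.

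Total estimated counts were 14343362 to 20857433 with scopolamine and 25769940 to 41428916 in sham, with no overlap between the groups, and depth cannot be told apart from treatment. The study's source data list less RNA input and more amplification cycles for sham replicates 1 and 3, called the low-input libraries below, and the fitted value of each of the 10 genes that has a ratio is given with and without them. Values are CPM, the counts of a library per its TMM-scaled total, and 3 counts, taken as the floor, correspond to 0.073 to 0.212 CPM depending on the library. The 15 tuft markers summed to 17500 to 30400 CPM with scopolamine and 22900 to 27200 in sham, with Dclk1, which the reporter follows, at 3440 CPM or more and the taste channel Trpm5 at 968 CPM or more in every library, as the label of the cells says. Markers of other epithelial cells were present too. Enteroendocrine markers summed to 476 to 1120 CPM with scopolamine and 179 to 1510 in sham, goblet markers to 684 to 3550 and 353 to 1380, Paneth markers to 55.5 to 1420 and 40.8 to 128, and enterocyte markers to 2980 to 6130 and 2500 to 6320. Stem and progenitor markers ran from 187 to 291 CPM and from 218 to 335, T lymphocyte markers from 21.1 to 98.5 and from 1.88 to 113, and mesenchymal markers from 2.30 to 7.58 and from 2.39 to 14.1. In bulk samples such as these, fewer cells of a type and less RNA per cell cannot be told apart.

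None of the 10 genes differed between scopolamine and sham past the adjusted threshold. Of the 7 that passed the expression filter, 4 had a higher and 3 a lower fitted value with scopolamine, with a median log2 fold change of 0.09, beside -0.0109 over all genes tested. At an adjusted p under 0.1, edgeR's quasi-likelihood test called 0 of the 7, and it called 0.0% of the 12849 genes tested. The smallest adjusted p among the 7 was 0.812. At an unadjusted p under 0.05 it found 1 of the 7, Hes6, lower, against 2.66% of all genes tested, and 0 higher, against 3.33%. DESeq2 called 0 of the 8 for which it gave an adjusted p (all but Notch2 and Notch3), and it called 1.31% of the genes with one. At an unadjusted p under 0.05 DESeq2 had 2 of those with a p (all 10 but Notch2), Notch1 and Gfi1, against 7.26% of all genes with a p. The other 3 genes, Notch2, Notch3 and Gfi1, were under the filter, and the same test without a filter found 2 of these 3, Notch3 and Gfi1, higher at an unadjusted p under 0.05. Among all genes the filter removed, that share was 9.07% higher and 2.66% lower. The Notch3 value rests on 8 counts in scopolamine replicate 2, with 0 in the other 7 libraries. CPM of the scopolamine and sham groups overlapped for every one of the 10, where the groups lay apart for 1.95% of all genes tested on the lower and 1.92% on the higher side.

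**Figure D1:**
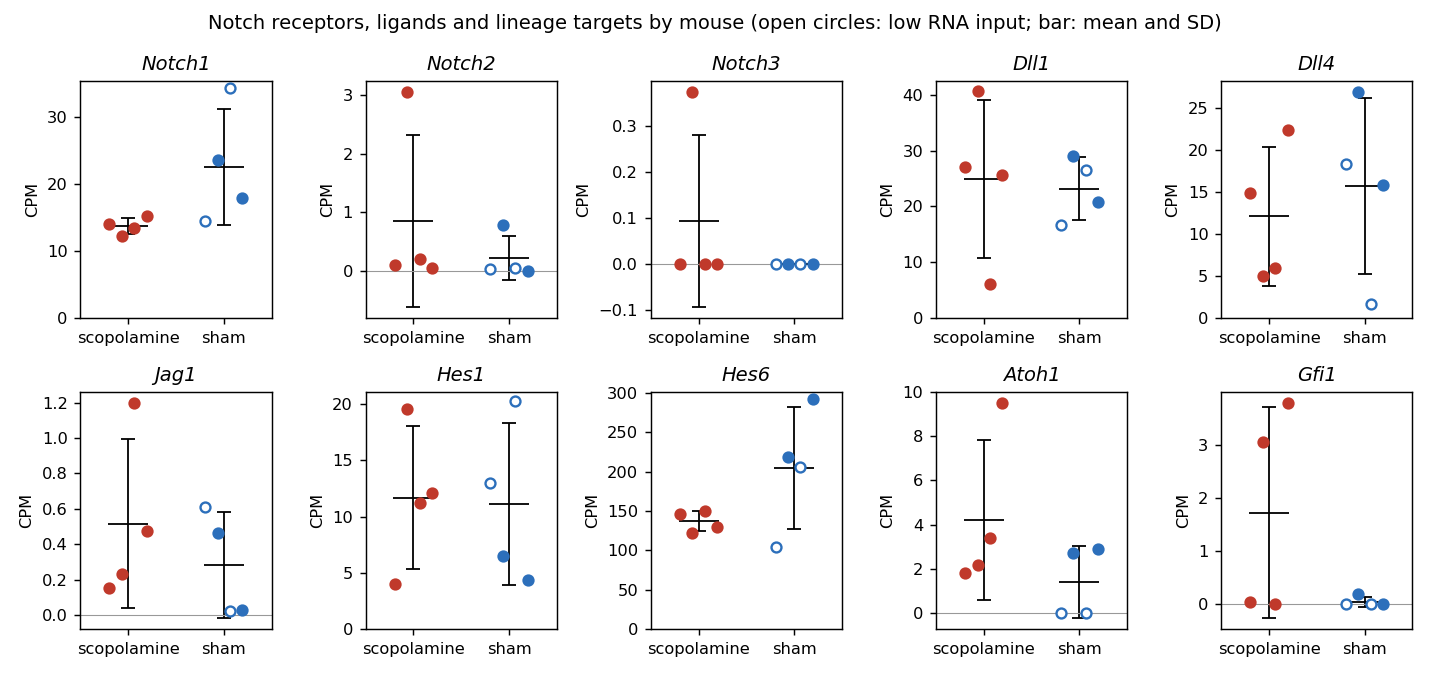
CPM of each of the 10 genes (vertical axes, one scale per gene) in 4 scopolamine mice (red) and 4 sham mice (blue); open circles are the low-input sham libraries, horizontal bars the group means and whiskers the SD. Hes6 and Notch1 are tight with scopolamine (122 to 150 CPM and 12.2 to 15.2 CPM) and spread in sham, and Notch2, Notch3 and Gfi1 are near 0 in most libraries.

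Notch1, the receptor that does most of the work in the intestinal crypt, was the abundant receptor of these cells. It was measured at 14, 12.2, 13.5 and 15.2 CPM in scopolamine replicates 1 to 4 and at 14.4, 23.5, 34.2 and 17.9 CPM in sham replicates 1 to 4. The scopolamine mice were close together, and 3 of the 4 sham mice were above all of them. Only the low-input sham replicate 1 fell inside the scopolamine range. The group means were 13.7 ± 1.23 CPM (SD, n = 4) and 22.5 ± 8.68 CPM (SD, n = 4). Its log2 fold change was -0.71 (standard error 0.34, 95% interval -1.47 to 0.04), with an unadjusted p of 0.0609 and a Benjamini-Hochberg adjusted p of 0.812 in edgeR. By exact permutation of log2 CPM over 70 assignments the two-sided p was 0.0571, where 0.0286 is the smallest possible. Without both low-input libraries the groups did not overlap, and the exact permutation p was 0.0667, the smallest that 4 against 2 allow. The fitted difference was smaller in that setting, at -0.61 (unadjusted p = 0.101, adjusted p = 0.656 by edgeR), and with the first letter of the mouse ID as a covariate it was -0.43 (unadjusted p = 0.312, adjusted p = 0.89 by edgeR). The absence of overlap was seen for 2 of the 7 tested genes, Notch1 and Hes6, both lower with scopolamine, against 9.25% of all genes tested. The gene lies on the minus strand at chr2:26457903-26516663 (GRCm38, GENCODE) and overlaps the transcripts 0610009E02Rik and Gm13568 on the other strand. Whether strand was used in counting is not given, and reads of overlapping genes may be shared.

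Notch2, the second receptor of the crypt, was seen mainly in a single mouse of each group. Scopolamine replicate 2 held 3.05 CPM (65 counts) and sham replicate 2 held 0.779 CPM (32 counts). The other 6 libraries lay at 0 to 0.212 CPM, with 0 to 3 counts each, at or under the floor. In the fit without a filter the log2 fold change was 1.93 (standard error 1.71, 95% interval -1.77 to 5.62, adjusted p = 0.761 by edgeR), and it turned to -0.88 without scopolamine replicate 2 and was 1.12 without the low-input libraries (adjusted p = 0.939 by edgeR). Notch3, a receptor best known from smooth muscle and pericytes, had 8 counts in scopolamine replicate 2 (0.375 CPM) and 0 counts in the other 7 libraries. No ratio is given for it, since the mean of 0.0938 CPM with scopolamine is within the range of the floor, and the exact permutation test gave p = 1.0. Notch2 (chr3:98013527-98150361, plus strand) overlaps the unverified transcripts Gm42819 and Gm42820, and Notch3 (chr17:32120820-32166852, minus strand) overlaps the antisense gene Gm17276. Notch4, the remaining receptor and no member of the group of 10, is known mostly from endothelium and had 4.61, 1.55, 1.13 and 2.60 CPM with scopolamine and 2.39, 5.09, 9.70 and 6.99 CPM in sham. Its log2 fold change was -1.29 (standard error 0.72, adjusted p = 0.817 by edgeR), with overlapping groups, and it was named after its values were seen. Of the endothelial markers, Erg was at 0 in every library, Cdh5 at no more than 0.0502 CPM and Kdr at no more than 0.212 CPM, while the 7 markers summed to 36.2 to 43.7 CPM with scopolamine and 33.4 to 50 CPM in sham, chiefly from Pecam1, Tek and Esam.

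Of the 3 ligands among the 10 genes, Dll1 had the highest mean level per kb over the 8 libraries. Dll1, a Delta ligand of early secretory progenitors, was measured at 27.1, 40.7, 6.15 and 25.7 CPM in scopolamine replicates 1 to 4 and at 16.6, 29.0, 26.5 and 20.8 CPM in sham. The highest and the lowest of the 8 mice were both scopolamine mice, and the sham values fell between them. Means were 24.9 ± 14.2 CPM (SD, n = 4) and 23.2 ± 5.59 CPM (SD, n = 4), and the log2 fold change was 0.10 (standard error 0.47, 95% interval -0.94 to 1.14, adjusted p = 0.991 by edgeR). Dll4, the other Delta ligand of the crypt, was measured at 14.9, 5.06, 5.93 and 22.4 CPM with scopolamine and at 18.3, 26.9, 1.71 and 15.8 CPM in sham. Its lowest value was that of the low-input sham replicate 3, and the highest sham value was 15.7 times the lowest. Its log2 fold change was -0.37 (standard error 0.74, 95% interval -2.0 to 1.26, adjusted p = 0.965 by edgeR). An exact permutation test gave p = 0.886 for each of these ligands. Without the low-input libraries the fitted values were -0.02 for Dll1 (adjusted p = 0.998 by edgeR) and -0.84 for Dll4 (adjusted p = 0.749 by edgeR). The 95% intervals span a ratio of scopolamine to sham from 0.521 to 2.21 for Dll1 and from 0.250 to 2.39 for Dll4.

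Within a library the ligands did not move as one. Dll1 exceeded Dll4 per kb of transcript in 7 of 8 libraries, by a mean log2 ratio of 1.11 ± 1.53 (SD, n = 8). The ratio was 3.05 in scopolamine replicate 2 and 3.96 in sham replicate 3, and between -0.07 and 0.92 in the other 6. Its group means were 1.09 with scopolamine and 1.13 in sham, and p was 0.943 by exact permutation. Jag1, a Jagged ligand, was close to the floor, at 0.150, 0.234, 1.2 and 0.474 CPM with scopolamine and 0.607, 0.463, 0.0248 and 0.0299 CPM in sham. Sham replicates 3 and 4 had a single count each. For Jag1 the log2 fold change was 0.86 (standard error 1.10, 95% interval -1.58 to 3.29, adjusted p = 0.923 by edgeR), and it was 0.04 without scopolamine replicate 3 and 1.01 without the low-input libraries (adjusted p = 0.899 by edgeR). The other Jagged ligand, Jag2, is no member of the group of 10 and was named after its values were seen. It was clearly present, at 20.6, 16.2, 16.9 and 14.8 CPM with scopolamine and 3.15, 36.6, 31.2 and 27.6 CPM in sham. The low-input sham replicate 1 was below every scopolamine mouse and the other 3 sham mice were above them, and the log2 fold change was -0.53 (standard error 0.57, adjusted p = 0.907 by edgeR). Dll1 (chr17:15367354-15376872, minus strand) overlaps the long noncoding gene A930024N18Rik, Dll4 (chr2:119325784-119335962, plus strand) overlaps Gm14207, and Jag1 lies at chr2:137081456-137116644 on the minus strand.

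Hes6 was by far the most abundant of the 10 genes, at the 95.7th percentile of mean expression among the 21805 genes with a count. Hes6 is a member of the Hes family that opposes Hes1 and is switched on in cells that differentiate. It was measured at 146, 122, 150 and 130 CPM in scopolamine replicates 1 to 4 and at 104, 218, 206 and 292 CPM in sham replicates 1 to 4. Sham replicates 2 to 4 were above every scopolamine mouse, and the low-input sham replicate 1 was below every one of them. The means were 137 ± 13.1 CPM (SD, n = 4) and 205 ± 77.6 CPM (SD, n = 4). The log2 fold change was -0.58 (standard error 0.26), with an unadjusted p of 0.0497 and an adjusted p of 0.812 in edgeR, which is a ratio of 0.669 with a 95% interval of 0.447 to 0.999. The exact permutation test gave p = 0.171.

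The value for Hes6 depended on which sham libraries were counted. Without both low-input libraries its log2 fold change was -0.92 (standard error 0.20), with an unadjusted p of 0.00145 and an adjusted p of 0.264 in edgeR, and the groups did not overlap. With RNA input as a covariate it was -0.90 (adjusted p = 0.651 by edgeR). The mouse ID, which starts with the letter M or N for reasons the sources do not give, was also unevenly spread, with 3 scopolamine mice and 1 sham mouse under M and 1 scopolamine mouse and 3 sham mice under N. Under M the mean of Hes6 was 140 CPM with scopolamine and 104 CPM in sham, and under N it was 130 CPM and 239 CPM. With that letter as a covariate the log2 fold change was -0.23 (adjusted p = 0.931 by edgeR). The lower mean with scopolamine was thus seen under N and not under M, where the 1 sham mouse is a low-input library. For Notch1 the corresponding means were 13.2 and 14.4 CPM under M and 15.2 and 25.2 CPM under N.

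Hes1, the repressor that Notch switches on in absorptive progenitors, was measured at 4.01, 19.6, 11.2 and 12.1 CPM with scopolamine and at 13.0, 6.45, 20.3 and 4.39 CPM in sham. Both groups ran over nearly the same range, and in sham the low-input libraries held the highest pair of values. The means were 11.7 ± 6.38 CPM (SD, n = 4) and 11.1 ± 7.20 CPM (SD, n = 4), and the log2 fold change was 0.09 (standard error 0.61, 95% interval -1.26 to 1.43, adjusted p = 0.994 by edgeR), with an exact permutation p of 0.971. The standard-input sham libraries averaged 5.42 CPM, and without the low-input ones the log2 fold change was 1.09 (standard error 0.65, unadjusted p = 0.129, adjusted p = 0.689 by edgeR). With RNA input as a covariate it was 1.11 (adjusted p = 0.87 by edgeR). Hes6 stood above Hes1 per kb in 8 of 8 libraries, by a mean log2 ratio of 3.95 ± 1.21 (SD, n = 8) that ran from 2.54 to 5.93. That ratio averaged 3.64 with scopolamine against 4.26 in sham, with p = 0.543 by exact permutation. Hes6 lies at chr1:91411483-91414038 (minus strand) and Hes1 at chr16:30064384-30067796 (plus strand), and neither overlaps another annotated gene.

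Atoh1, the master regulator of secretory fate, had 1.81, 2.16, 3.39 and 9.52 CPM in scopolamine replicates 1 to 4 and 0, 2.70, 0 and 2.90 CPM in sham replicates 1 to 4. Both sham libraries at 0 are the low-input ones. The groups overlapped, since both standard-input sham mice were above scopolamine replicates 1 and 2. The log2 fold change of 1.59 (standard error 1.52, 95% interval -1.79 to 4.96, adjusted p = 0.895 by edgeR) became 0.56 without the low-input libraries and 4.36 with the letter of the mouse ID as a covariate. The exact permutation test gave p = 0.229.

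Gfi1, a zinc-finger repressor that acts after Atoh1 in goblet and Paneth cells, was seen in scopolamine replicates 2 and 4, at 3.05 CPM (65 counts) and 3.79 CPM (80 counts). It was at 0.0502 CPM (1 count) in scopolamine replicate 1 and at 0 in replicate 3, and in sham at 0.195 CPM (8 counts) in replicate 2 and at 0 in the other 3. Both groups therefore hold mice at or near 0. The sham mean is under the floor, so the ratio of means is a lower bound. With each sham library under 3 counts set to 3 counts, the means were 1.72 CPM with scopolamine and 0.118 CPM in sham, at least 14.6-fold higher, and that rests on 2 scopolamine mice. The fit without a filter gave an unadjusted p of 0.031 and an adjusted p of 0.587 in edgeR, and DESeq2 gave an adjusted p of 0.371. By exact permutation p was 0.257. Over the alternatives the unadjusted p lay on both sides of 0.05. It was 0.135 without both low-input libraries (adjusted p = 0.696 by edgeR) and 0.11 with RNA input as a covariate, 0.0183 with the letter of the mouse ID as a covariate and 0.0231 with every library thinned to the smallest total, and the fitted difference was positive in each.

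Its relative Gfi1b, a factor of tuft cells that is also one of the tuft markers above, was present in every library at 129 to 302 CPM and exceeded Gfi1 per kb in 8 of 8 libraries. In the 3 libraries with more than 3 counts of Gfi1 the log2 ratio was 6.07 (scopolamine replicate 2), 5.71 (scopolamine replicate 4) and 10.36 (sham replicate 2). Gfi1b was named after its values were seen. Scopolamine replicate 4, which had the highest Atoh1 and the highest Gfi1, also had the highest Paneth marker sum, 1420 CPM against 40.8 to 173 CPM in the other 7 libraries, with lysozyme (Lyz1) at 488 CPM. Scopolamine replicate 2, with the other high Gfi1 value, had 173 CPM of Paneth and 2130 CPM of goblet markers, but the highest goblet sum, 3550 CPM, was that of scopolamine replicate 1, where Gfi1 had 1 count. Higher means with scopolamine were found for 7 of 7 Paneth, 7 of 8 goblet, 10 of 10 enterocyte, 12 of 15 enteroendocrine and 9 of 10 T lymphocyte markers. They were found for 3 of 15 tuft, 2 of 8 stem and progenitor, 4 of 7 endothelial and 2 of 7 mesenchymal markers, and 6305 of the 12849 genes tested had a positive log2 fold change. Exact permutation tests of the summed markers gave p = 0.343 for Paneth and 0.2 for goblet, and 0.143 to 0.886 over all 9 lists. Whether such cells hold the Atoh1 and Gfi1 counts was not tested. Atoh1 lies at chr6:64729125-64731245 (plus strand), and Gfi1 (chr5:107716657-107726036, minus strand) overlaps A430072P03Rik.

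**Figure D2:**
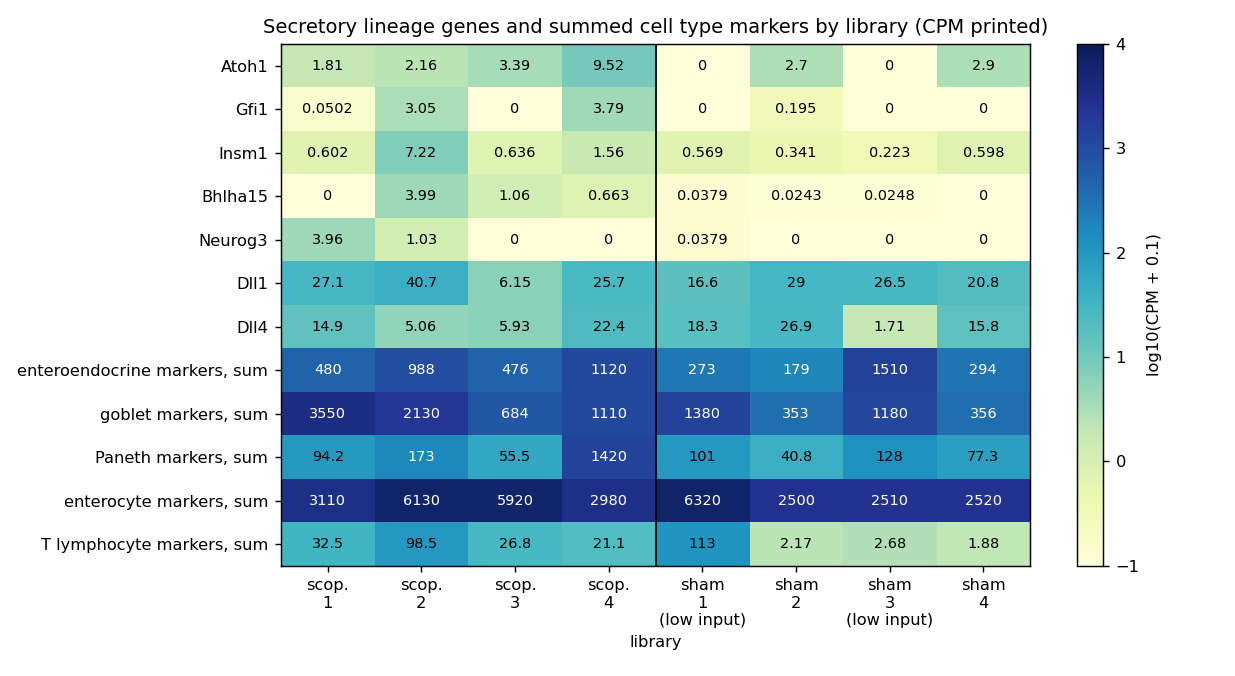
CPM in each of the 8 libraries (columns) of secretory lineage genes and Delta ligands and of summed markers of other cell types (rows), with the value printed and the colour on a log10 scale. The lineage genes shown (Atoh1, Gfi1, Insm1, Bhlha15 and Neurog3) all have a positive fitted value and are part of a list of 11 secretory factors. Of the 8 of that list that were tested, 4 were higher and 4 lower with scopolamine. Gfi1 is high in scopolamine replicates 2 and 4, Neurog3 in 1 and 2, and the Paneth sum of 1420 CPM stands out in scopolamine replicate 4.

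**Figure D3:**
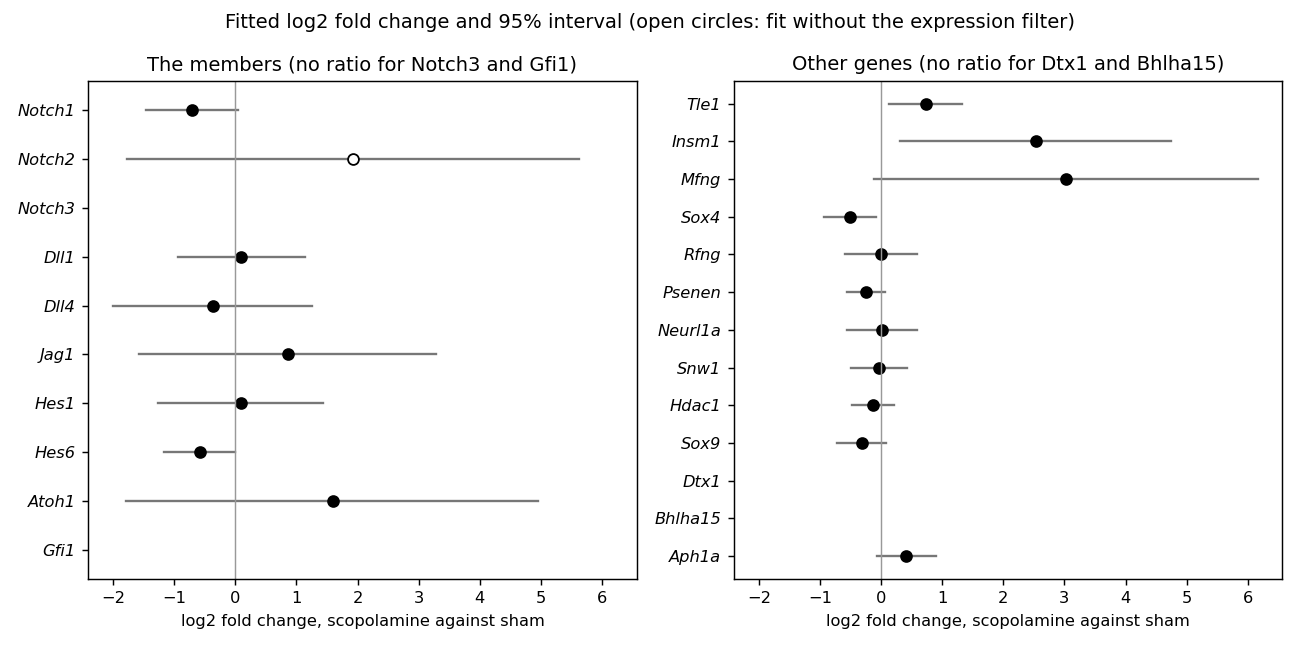
Fitted log2 fold change (scopolamine against sham, horizontal axis) with its 95% interval for the Notch genes (left) and for other pathway genes named here (right); the open circle comes from the fit without a filter, and Notch3, Gfi1, Dtx1 and Bhlha15, with a group mean under the lowest floor, have no point. The intervals of Notch1, Notch2, Dll1, Dll4, Jag1, Hes1 and Atoh1 span 0, and that of Hes6 ends just under it.

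Levels were compared between genes per kb of the longest annotated transcript, as means over the 8 libraries. Hes6 led at 109 ± 40.1 CPM per kb (SD, n = 8). Hes1 (7.76 CPM per kb), Dll1 (6.72) and Dll4 (3.71) followed, then Notch1 (1.91) and Atoh1 (1.32), and far below them Gfi1 (0.309), Jag1 (0.0709), Notch2 (0.0509) and Notch3 (0.00585). Neighbours in this order were compared by an exact sign-flip permutation test of the log2 ratio within libraries (two-sided, 256 sign flips, smallest p 0.00781), adjusted over the 9 pairs. Hes6 was above Hes1 in 8 of 8 libraries (exact permutation p = 0.00781, unadjusted). Dll1 was above Dll4 in 7 of 8 (exact permutation p = 0.0156, unadjusted). Both had an adjusted permutation p of 0.0469. That adjusted value rests on also counting the permutation p of 0.0156 for Atoh1 and Gfi1, a pair whose test is not read. It therefore decides neither comparison, and the pairs were taken from an order of the same 8 libraries. Hes1 and Dll1, Dll4 and Notch1, and Notch1 and Atoh1 did not differ beyond their spread, with adjusted permutation p of 0.305 to 0.727. Atoh1 was above Gfi1 in 5 of 8 libraries and both were at 0 in 2, and no test is read for this pair or for the pairs below it, since Gfi1, Notch2 and Notch3 were at or under 3 counts in most libraries. Notch1 exceeded Notch2 per kb in 8 of 8 libraries, by a log2 ratio of 2.12 in scopolamine replicate 2 and 4.94 in sham replicate 2, the libraries with more than 3 counts of Notch2, and exceeded Notch4 in 8 of 8, by 1.78 ± 0.72 (SD, n = 8).

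**Figure D4:**
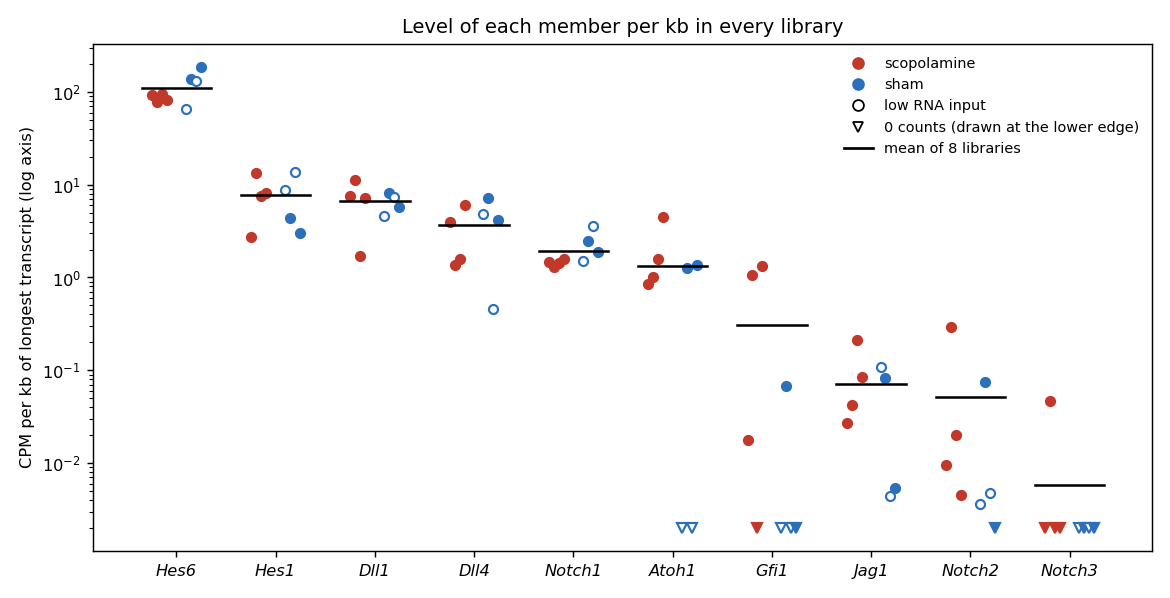
Level of each of the 10 genes in every library, in CPM per kb of the longest transcript on a log axis; red circles are scopolamine, blue sham, open symbols low-input sham, triangles libraries with 0 counts, and black lines the mean of 8 libraries. The mean runs from 109 for Hes6 to 0.00585 for Notch3.

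Promoters are shown for Hes6 and Notch1, the pair of the 10 whose groups did not overlap once the low-input libraries were left out, and for Atoh1, the classical target of Hes repression. RefSeq windows of the 250 bases before a transcript start (GRCm38.p6) were found for 9 of the 10 genes (all but Hes1), 12 windows in all. They were searched on both strands for the core of the RBPJ site TGGGAA, the binding sites of Hes repressors called N-box (CACNAG) and class C site (CACGCG), and the E-boxes CAGCTG and CAGGTG that proneural factors bind. Capitals mark the matches, and no matches overlapped. The Hes6 window is chr1:91414039-91414288 (minus strand), that of Notch1 chr2:26503823-26504072 (minus strand, inside the longer gene model given above) and that of Atoh1 chr6:64728875-64729124 (plus strand).
Hes6: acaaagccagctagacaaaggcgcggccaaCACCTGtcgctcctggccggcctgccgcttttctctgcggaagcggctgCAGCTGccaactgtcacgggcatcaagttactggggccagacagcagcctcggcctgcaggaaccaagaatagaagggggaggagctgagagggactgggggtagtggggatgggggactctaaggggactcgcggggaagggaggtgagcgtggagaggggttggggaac
Notch1: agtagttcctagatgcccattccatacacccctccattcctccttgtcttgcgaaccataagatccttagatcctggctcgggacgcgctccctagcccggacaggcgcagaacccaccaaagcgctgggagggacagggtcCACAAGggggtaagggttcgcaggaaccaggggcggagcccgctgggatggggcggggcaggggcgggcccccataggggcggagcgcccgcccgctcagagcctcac
Atoh1: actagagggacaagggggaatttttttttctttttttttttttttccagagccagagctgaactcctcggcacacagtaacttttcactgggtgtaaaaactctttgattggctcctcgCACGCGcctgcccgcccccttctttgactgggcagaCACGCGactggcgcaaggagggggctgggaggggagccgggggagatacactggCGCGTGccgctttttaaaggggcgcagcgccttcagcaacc

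The Hes6 window held CAGCTG at position -171 and CAGGTG, read on the other strand, at -220, counted to the first base shown of the match with -1 as the base before the start. A second Hes6 window, at a start farther downstream, held another CAGCTG and an N-box. The Notch1 window held an N-box at -108. In Atoh1 the class C site occurred at -131, -95 and -41, and 3 or more such sites were found in 0.225% of all 32851 windows. The RBPJ core was in 0 of the 12 windows, against 21.6% of all windows. An N-box was found in 5 of the 9 genes (36.7% of all windows), a class C site in 5 (7.62%), CAGCTG in 3 (13.0%) and CAGGTG in 3 (17.2%). These gene counts pool all windows of a gene, and Dll1, Hes6 and Gfi1 have more than a single window. The percentages count single windows, so the shares are not like for like. A match describes letters in this window and no binding was measured.

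The wider pathway was read from a list of 82 genes, the 10 included, which runs from receptor glycosylation to secretory factors. Of these, 4 had no count in any library (Dlk2, Hes3, Hey2 and Heyl), 14 more were under the filter and 64 were tested. The log2 fold change was above 0 for 35 and below 0 for 29, with a median of 0.06. edgeR called 0 of the 64. At an unadjusted p under 0.05, 2 were higher (Tle1 and Insm1) and 2 lower (Sox4 and Hes6), where 3.33% and 2.66% of all genes tested were. Among the genes under the filter, 8 of 14 were higher and 1 lower at that level in the fit without a filter, against 9.07% and 2.66% of all genes the filter removed. Each of these 8 was at or under 3 counts in 3 or 4 sham libraries and in at least 1 scopolamine library. Groups lay apart for 1 gene on the lower side (Sox4) and 2 on the higher side (Insm1 and Aph1a), against 1.95% and 1.92% of all genes tested. Without the low-input libraries groups lay apart for 11 of the 64 on the lower and 6 on the higher side, against 9.25% and 9.07% of all genes tested. The 11 included Notch1, Hes6 and Sox4. DESeq2 called 2 of the list, both higher, and 1.31% of all genes for which it gave an adjusted p. Some of the 82 have no adjusted p from it, so 2 of 82 is not the like share.

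By role, both tested receptors had negative log2 fold changes, with a median of -1.0, and so did 3 of 5 ligands, with a median of -0.37. Medians were 0.26 for the 5 tested enzymes of receptor glycosylation, 0.16 for the 10 genes of receptor cleavage, 0.10 for the 12 of endocytosis and turnover, 0.15 for the 8 of the nuclear complex, 0.01 for the 11 corepressors, -0.58 for the 3 Hes and Hey genes with Nrarp, and 0.08 for the 8 secretory factors. The most abundant gene of a role did not pass the test in any role. Psenen, a subunit of gamma-secretase, averaged 194 ± 9.70 CPM with scopolamine (SD, n = 4) against 229 ± 30.4 CPM in sham (SD, n = 4). Rfng, a Fringe glycosyltransferase, averaged 36.2 and 36.3 CPM, Neurl1a, a ubiquitin ligase that acts on ligands, 86.9 and 85.8 CPM, the coactivator Snw1 119 and 122 CPM, and the histone deacetylase Hdac1 215 and 236 CPM. Sox9, a crypt and Paneth cell factor that tuft cells also express, averaged 587 ± 154 CPM (SD, n = 4) and 730 ± 44.9 CPM (SD, n = 4), and the log2 fold change was -0.32 (standard error 0.18, adjusted p = 0.819 by edgeR).

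Among the 64 genes past the filter, the smallest unadjusted p on the higher side belonged to Tle1, Insm1 and Mfng. Tle1, a Groucho corepressor that Hes proteins recruit, had 29.7, 51.1, 31.5 and 39.0 CPM with scopolamine and 17.3, 21.7, 22.2 and 29.8 CPM in sham. The groups touched only where the highest sham mouse met the lowest scopolamine mouse, and the log2 fold change was 0.73 (standard error 0.27, unadjusted p = 0.0211, adjusted p = 0.812 by edgeR). Insm1, a factor of the enteroendocrine lineage, had 0.602, 7.22, 0.636 and 1.56 CPM with scopolamine and 0.569, 0.341, 0.223 and 0.598 CPM in sham. The groups did not overlap (exact permutation p = 0.0286), but the gap between the nearest mice was 0.598 against 0.602 CPM. The log2 fold change was 2.53 (standard error 1.0, adjusted p = 0.812 by edgeR). Mfng, another Fringe enzyme, averaged 1.28 ± 1.14 CPM (SD, n = 4) and 0.155 ± 0.241 CPM (SD, n = 4), and the log2 fold change was 3.03 (standard error 1.42, adjusted p = 0.812 by edgeR).

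On the lower side among these 64, Sox4, a factor of secretory and tuft progenitors, joined Hes6 and Notch1. Sox4 averaged 105 ± 24.9 CPM under scopolamine (SD, n = 4) against 149 ± 15.9 CPM in sham mice (SD, n = 4), a log2 fold change of -0.51 (standard error 0.19, adjusted p = 0.812 by edgeR) and an exact permutation p of 0.0286. Outside the rule for named genes, and chosen after their values were seen, are Aph1a, Dtx1 and Bhlha15. Aph1a, another subunit of gamma-secretase, lay at 32.3 to 42.7 CPM with scopolamine and 22.4 to 30.1 CPM in sham, without overlap, and had a log2 fold change of 0.41 (standard error 0.22, adjusted p = 0.813 by edgeR).

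DESeq2's calls in the list were Dtx1 and Bhlha15. Dtx1, a Deltex ubiquitin ligase of the receptor, had 0.1, 7.41, 3.25 and 0.474 CPM with scopolamine and 0.0379, 0.0730, 0.149 and 0.0299 CPM in sham (adjusted p = 0.0123 by DESeq2, 0.587 by edgeR without a filter, exact permutation p = 0.0571). Bhlha15, a factor of secretory cell maturation, had 0, 3.99, 1.06 and 0.663 CPM with scopolamine and 0.0379, 0.0243, 0.0248 and 0 CPM in sham (adjusted p = 0.0482 by DESeq2, 0.587 by edgeR without a filter, exact permutation p = 0.143). In both genes a scopolamine mouse lay within the sham range, and the highest value was that of scopolamine replicate 2, as for Notch2, Notch3, Dll1, Tle1, Insm1 and Mfng.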

How the data were processed

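RNA was extracted from sorted cells, amplified to cDNA, sequenced and converted with bcl2fastq 2.20 per the labels. The authors assigned reads to GRCm38 transcripts with kallisto 0.44.0 and deposited the estimated counts of each gene, not normalized. They are whole numbers, and rounding changed 0. The annotation release and use of strand are not given in the sources used here.

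All 35199 listed genes entered the analysis, 21805 had a count and 12849 passed filterByExpr. Groups were fitted in edgeR 4.0.16 (R 4.3.3), with TMM, a quasi-likelihood test and Benjamini-Hochberg adjusted p under 0.1, and without a filter for genes below it. DESeq2 1.42.0, other scalings, filters and thresholds, covariates, thinning and leaving out libraries were alternatives. Log2 CPM with a prior count of 2 entered exact permutation tests. The edgeR test was tested on simulated data. Gene models are GENCODE M21 and promoters RefSeq. Named genes are the 10, pathway genes past the threshold, otherwise the 3 smallest p in each direction, and the most abundant gene of each role. Members and lists were chosen with earlier results of these data known. Replicates are separate mice, numbered in accession order. No libraries of a group agreed within sampling noise (smallest chi-square per degree of freedom 67.5).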

Additional observations from a re-analysis of the deposited data

Results flagged for a closer look

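In 4 of the 19 groups of 4 mice examined, 1 mouse stood apart from the other 3 by more than Dixon's 95% limit. Chance passes that limit in about 1 of 20 groups of continuous values, but that rate does not hold here, since the other mice are at or near 0 counts and, where they are at 0, any count passes. Notch2 in scopolamine replicate 2 was at 3.05 CPM, against 0.0474 to 0.212 CPM in the other 3 scopolamine mice. Notch2 in sham replicate 2 was at 0.779 CPM, against 0 to 0.0496 CPM in the other sham mice. Notch3 in scopolamine replicate 2 was at 0.375 CPM, with 0 in the other 3. Gfi1 in sham replicate 2 was at 0.195 CPM, with 0 in the other 3. In each case the others had 3 counts or fewer. The cause was not tested.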

How the results depend on the processing

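The count of called genes among the 10 was 0 under every alternative that was run. Over all genes, edgeR called 0 (770 at an unadjusted p under 0.05, smallest adjusted p 0.439), DESeq2 190 (142 higher, 48 lower), the fit without the low-input sham libraries 9, the fit with RNA input as a covariate 5, and the fits that left out 1 library 0 to 2. In the pathway list DESeq2 called 2, where edgeR called 0. The order of levels put 4 of the 10 genes at another rank with the union of annotated exons as gene length and 4 without the low-input libraries (Dll1 before Hes1 and Atoh1 before Notch1 in both), and leaving out 1 library moved 0 to 2 (Notch2 before Jag1 without scopolamine replicate 3). Without the low-input libraries the fold change of Dll1 turned to -0.02, and that of Hes1 moved to 1.09. Leaving out 1 library gave log2 fold changes of -0.25 to 0.42 for Dll1 (negative without scopolamine replicate 2 or, at -0.04, sham replicate 1), -0.86 to 0.02 for Dll4 (positive without sham replicate 2), -0.28 to 0.56 for Hes1 (negative without scopolamine replicate 2 or, at -0.10 and -0.18, without sham replicate 2 or 4), -0.88 to 4.62 for Notch2, -0.89 to -0.44 for Notch1, -0.82 to -0.36 for Hes6, 0.04 to 1.51 for Jag1 and 0.78 to 2.21 for Atoh1. The cause was not tested. No paired analysis was possible because the replicate numbers were given in accession order and pair no mice. The depth of 14343362 counts or more puts 3 counts at 0.212 CPM or less, and Notch2, Notch3 and Gfi1 were at or under 3 counts in most libraries, and intervals cover the spread between 4 mice a group.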

Other observations

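Several genes of the pathway list outside the group of 10 were seen chiefly in 1 or 2 mice, and not in the same ones. They were chosen after their values were seen, no adjusted p from edgeR was below 0.587, and their values are given as a description. Maml2, a coactivator of the Notch complex, was at 9.05 CPM in sham replicate 3 and at 0.0469 to 0.152 CPM in the other 7 libraries. Hey1, a repressor of the Hes and Hey family, was at 0.947 CPM in scopolamine replicate 4 and at 0 in the other 7. Hes2 was at 2.31 CPM and 3.13 CPM in scopolamine replicates 1 and 4, and at 0 to 0.0299 CPM elsewhere. Neurog3, the factor that starts enteroendocrine differentiation and also one of the enteroendocrine markers, was at 3.96 CPM and 1.03 CPM in scopolamine replicates 1 and 2, at 0.0379 CPM in sham replicate 1 and at 0 in the other 5. Hes5 was at 1.97 CPM and 1.4 CPM in sham replicates 1 and 4 and at 0 to 0.636 CPM elsewhere. Nrarp, a feedback inhibitor that Notch induces, was present in all 8 mice, at 6.52, 13.4, 3.32 and 5.35 CPM with scopolamine and 16.9, 9.01, 26.3 and 9.89 CPM in sham, with overlapping groups (log2 fold change -1.12, adjusted p = 0.812 by edgeR, exact permutation p = 0.0857).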
